A study of Mus musculus with 53 samples.

Results

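The response of wild-type (WT) bone marrow-derived macrophages (BMDMs) to 6 h of interleukin-4 (IL-4) was examined by RNA-seq. It was defined by the 4 WT samples labelled as 6 h of IL-4 and the 4 WT controls of the same time, which are 8 of the 53 samples of the series. Of 23847 loci listed for each sample, 10760 reached 1 FPKM in at least 1 of these 8 samples and were tested. FPKM, the fragments mapped to a transcript scaled to its length and to the size of the library, is the unit of all levels. Marrow cells of C57BL/6 mice aged 8 to 12 weeks were grown into macrophages for 6 days with MCSF by the sample titles and with L929 supernatant by the growth protocol, and IL-4 was given at 20 ng/ml. All cells, controls included, went through this differentiation. The 6 h groups of Stat6-/- BMDMs, from full-body knockout mice of the same background, had 2 samples each with and without IL-4. The WT responses at 1 h, 3 h and 24 h were used for comparison in time, with 4 samples per group and 3 for 24 h of IL-4. The study asked which genes IL-4 raises and lowers in these cells and which of these changes need STAT6.

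IL-4 is a cytokine of T helper 2 cells, basophils and innate lymphoid cells. On macrophages it binds the IL-4 receptor alpha chain paired with the common gamma chain or with the IL-13 receptor alpha 1 chain, and the attached Janus kinases phosphorylate STAT6. Phosphorylated STAT6 dimerises, enters the nucleus and binds palindromic sites made of TTC and GAA with a short spacer. The resulting state, called alternative polarization, is known for arginase, resistin-like and chitinase-like proteins and lectin receptors, and it is found in helminth infection, allergy and tissue repair.

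Each of the 8 macrophage markers was at or above 1 FPKM, and their sum was 4738 to 5115 FPKM in controls and 3774 to 4055 FPKM with IL-4, without overlap. Cd68 was between 1006 and 1388 FPKM in the 8 samples, Csf1r (the receptor for MCSF) between 765 and 1049 FPKM, and Emr1 (F4/80) between 723 and 830.3 FPKM, and these 3 were not called. The log2 changes of the other 5 were -3.08 for Cd14 and -1.28 for Mertk, both called, and -1.16 for Fcgr1, -0.58 for Mpeg1 and -0.52 for Itgam, not called. Of the other cell types, the 8 neutrophil markers summed to 332 to 472 FPKM in controls and 341 to 430.2 FPKM with IL-4, mostly S100a8 and S100a9. The 8 T or NK cell markers summed to at most 8.14 FPKM, the 6 B cell markers to at most 7.54 FPKM, and the 7 erythroid and 6 fibroblast markers to less than 1 FPKM in every sample. The summed endothelial markers were 2.30 to 3.65 FPKM in controls and 14.7 to 19.2 FPKM with IL-4, which was nearly all Pecam1, since 3 of the 5 stayed under 0.1 FPKM in all 8 samples and Kdr did not exceed 0.466 FPKM with IL-4. Stat6 was between 62.4 and 84.3 FPKM in the 8 WT samples and between 20.3 and 24.0 FPKM in the 4 Stat6-/- samples of 6 h. Depth relative to the median sample of the series was 0.98 to 1.493 with IL-4 and 0.847 to 1.177 in controls, and the 10 most abundant loci held 12.87% to 13.95% and 13.36% to 17.71% of the FPKM sum. The part of these differences in the results was not tested. In bulk RNA, fewer cells of a type and less RNA per cell cannot be told apart.

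At 6 h, 354 loci were higher and 264 were lower with IL-4 by at least 2-fold on the log2(FPKM + 1) scale with an adjusted p under 0.05 (limma, Benjamini-Hochberg), which is 3.29% and 2.45% of the loci tested. Of these 618 loci, 615 had every IL-4 sample beyond every control sample. Across all loci, the groups did not overlap with IL-4 higher in 24.3% and with IL-4 lower in 22.2%, and the adjusted p was under 0.05 at any size of change in 22.6% (higher) and 19.5% (lower). The 3 called loci with overlapping groups were Ninj1, Rnu11 and Pira4, named after their values were seen. Rnu11 was listed at 144 FPKM in 1 control and at 0 in the other 7 samples.

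Increases were larger than decreases on the log2(FPKM + 1) scale, where a fall cannot exceed the control level. The log2 change was 3 or more in 31 of the 354 increased loci and in 2 of the 264 decreased loci, and the medians were 1.51 and -1.30, beside 0.002 over all tested loci. The loci that rose had a median control level of 5.32 FPKM that became 21.6 FPKM, and the loci that fell went from a median of 16.03 to 5.24 FPKM. In 73 of the increased loci all 4 controls were under 1 FPKM, and these loci entered the test through their IL-4 samples alone. Of the decreased loci, 17 were under 1 FPKM in all 4 IL-4 samples.

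**Figure D1:**
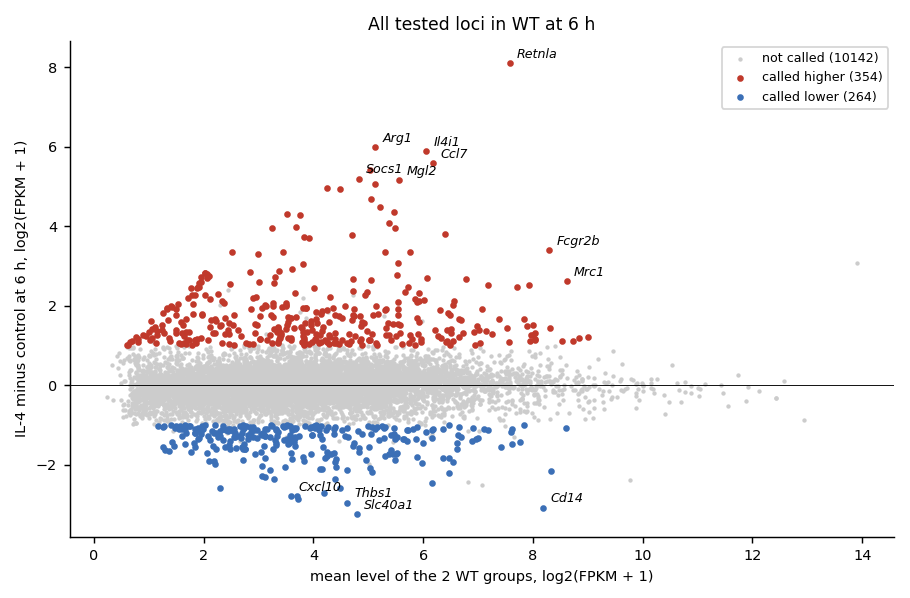
Change with IL-4 at 6 h in WT (vertical, log2 of FPKM + 1) against the mean level of both groups (horizontal, same scale) for the 10760 tested loci, 1 point each. The 354 loci called higher (red) reach 8.10 (Retnla), and the 264 called lower (blue) reach -3.24 (Slc40a1).

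The largest rises were in secreted and metabolic products of alternatively polarized macrophages. Retnla (chromosome 16, 48842552 to 48844461, mm10), which encodes the secreted protein RELM alpha, was at 265, 289.6, 449 and 512 FPKM in the IL-4 samples 1 to 4, at 2.16 FPKM in control 1 and listed at 0 in the other 3 controls. The groups were far apart, with a log2 change of 8.10 ± 0.29 (SE, adjusted p = 3.75e-24 in limma). Arg1 (chromosome 10, 24915207 to 24927470), the arginase that turns arginine into ornithine and urea, was at 71.0, 97.8, 61.8 and 39.8 FPKM with IL-4 and at most 0.0635 FPKM in controls. It changed by 5.98 ± 0.16 (adjusted p = 7.58e-28 in limma). In both genes every IL-4 sample was far above every control.

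Il4i1 (chromosome 7, 44836288 to 44840809), a secreted L-amino acid oxidase, was tighter. It was at 128, 141, 125 and 126 FPKM with IL-4 and 1.45, 1.26, 1.21 and 0.960 FPKM in controls, a log2 change of 5.89 ± 0.22 (adjusted p = 3.28e-23 in limma). Its exons overlap those of Nup62 on the same strand and of Atf5 and Tbc1d17 on the other strand in GENCODE, and the libraries did not mark strand, so fragments of these genes may be shared. Slc7a2, a transporter of cationic amino acids that brings in arginine, rose from 0.104 ± 0.0197 (SD, n = 4) to 20.9 ± 2.50 FPKM. Ptgs1 (cyclooxygenase-1) rose from 2.18 ± 0.244 to 70.0 ± 1.000 FPKM, and Prps1, which makes the ribose phosphate donor of nucleotide synthesis, from 3.10 ± 0.287 to 83.8 ± 9.23 FPKM. In each of these 3 genes the IL-4 samples lay within a narrow range well above all controls.

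Feedback inhibitors and receptors made up most of the other large rises. Socs1 and Cish encode inhibitors of Janus kinase and STAT signalling. Socs1 was at 59.7, 54.5, 62.8 and 41.0 FPKM with IL-4 and 0.792, 0.508, 0.429 and 0.292 FPKM in controls, a log2 change of 5.20 ± 0.26 (adjusted p = 3.57e-19 in limma). Cish rose from 0.417 ± 0.109 to 42.5 ± 5.84 FPKM (SD, n = 4). Mgl2, a lectin that binds galactose-type sugars, was at 73.6, 104, 96.5 and 89.6 FPKM with IL-4 and 1.18, 0.743, 1.77 and 3.07 FPKM in controls, and 13.1% of its 50-base stretches also occur in other genes, mainly Clec10a. The groups of Mgl2 were separate, and Clec10a itself rose by 2.66. Pdcd1lg2 (PD-L2, a ligand of the inhibitory receptor PD-1) rose from 0.191 ± 0.0507 to 36.0 ± 2.25 FPKM, Tarm1 (an activating receptor of myeloid cells) from 1.51 ± 0.450 to 63.03 ± 7.49 FPKM, and Flt1 (the VEGF receptor 1) from 0.325 ± 0.105 to 24.8 ± 4.07 FPKM. Tmem26, a membrane protein, rose from 1.05 ± 0.373 to 66.4 ± 7.12 FPKM.

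The remaining 2 of the 15 largest rises were Ccl7, a chemokine that attracts monocytes, and Serpina3g, an inhibitor of serine proteases. Ccl7 was at 139, 227, 114 and 86.1 FPKM with IL-4 and at 1.63, 3.49, 1.27 and 1.30 FPKM in controls. All IL-4 samples were above all controls, with a log2 change of 5.58 ± 1.26 (adjusted p = 0.000375 in limma). Its SE was the largest of the 15. The spread was estimated over all 53 samples, and the 2 Stat6-/- controls of 6 h were at 0.806 and 38.3 FPKM for Ccl7. Serpina3g rose from 0.501 ± 0.0899 to 63.1 ± 6.66 FPKM (SD, n = 4), and 15.5% of its 50-base stretches occur in other genes of the Serpina3 cluster.

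The windows before the transcription starts of the strongest increases were searched for the 2 spacings of the STAT palindrome, TTCNNNNGAA (4 bases between TTC and GAA, the spacing that STAT6 prefers) and TTCNNNGAA (3 bases, shared by the other STATs). Both read the same on either strand, and a window could hold both. The RefSeq windows (GRCm38.p6, 250 bases before to 50 after the start) were matched by symbol for 262 of 353 increased genes, 189 of 264 decreased genes and 8061 of 10719 tested genes. TTCNNNNGAA occurred in 9.54% of the increased, 4.76% of the decreased and 6.65% of all tested genes, and in 6.95% of all 32851 windows. TTCNNNGAA occurred in 7.63%, 6.88% and 8.18% of them, and in 8.30% of all windows. In numbers, 25 increased and 9 decreased genes held the longer spacing, a description without a test.

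Of the 15 largest increases, 12 had a window, all but Arg1, Ccl7 and Slc7a2, and 3 of the 12 held TTCNNNNGAA before their start. Their windows are shown because these genes are among those that changed most. The capitals mark the palindrome, and each sequence is the plus strand, 5′ to 3′, ending before the first base of the locus in the tables. The palindrome begins 145 bases before the RefSeq start of Retnla (chr16:48842359-48842551), 227 and 41 bases before that of Tmem26 (chr10:68723496-68723745) and 82 bases before that of Pdcd1lg2 (chr19:29410669-29410918).
Retnla: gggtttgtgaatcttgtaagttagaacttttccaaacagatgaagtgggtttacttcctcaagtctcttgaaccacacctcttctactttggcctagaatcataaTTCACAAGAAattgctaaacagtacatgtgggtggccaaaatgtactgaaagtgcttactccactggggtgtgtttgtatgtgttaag
Tmem26: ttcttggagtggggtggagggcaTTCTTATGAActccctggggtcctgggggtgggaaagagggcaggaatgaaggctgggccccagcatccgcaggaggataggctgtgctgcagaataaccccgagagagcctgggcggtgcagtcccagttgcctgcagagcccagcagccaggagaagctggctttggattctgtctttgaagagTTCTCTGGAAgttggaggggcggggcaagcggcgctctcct
Pdcd1lg2: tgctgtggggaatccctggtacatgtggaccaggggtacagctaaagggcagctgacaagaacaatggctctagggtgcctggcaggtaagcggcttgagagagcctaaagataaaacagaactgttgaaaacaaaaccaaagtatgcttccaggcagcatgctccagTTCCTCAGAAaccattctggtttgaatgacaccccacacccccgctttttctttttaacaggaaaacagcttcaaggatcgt
A match describes the letters only. The windows of Il4i1, Socs1, Mgl2, Tarm1, Ptgs1, Prps1 and Flt1 held neither spacing, those of Serpina3g and Cish held TTCNNNGAA, and none of the windows found for 9 of the 15 largest decreases held either.

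**Figure D2:**
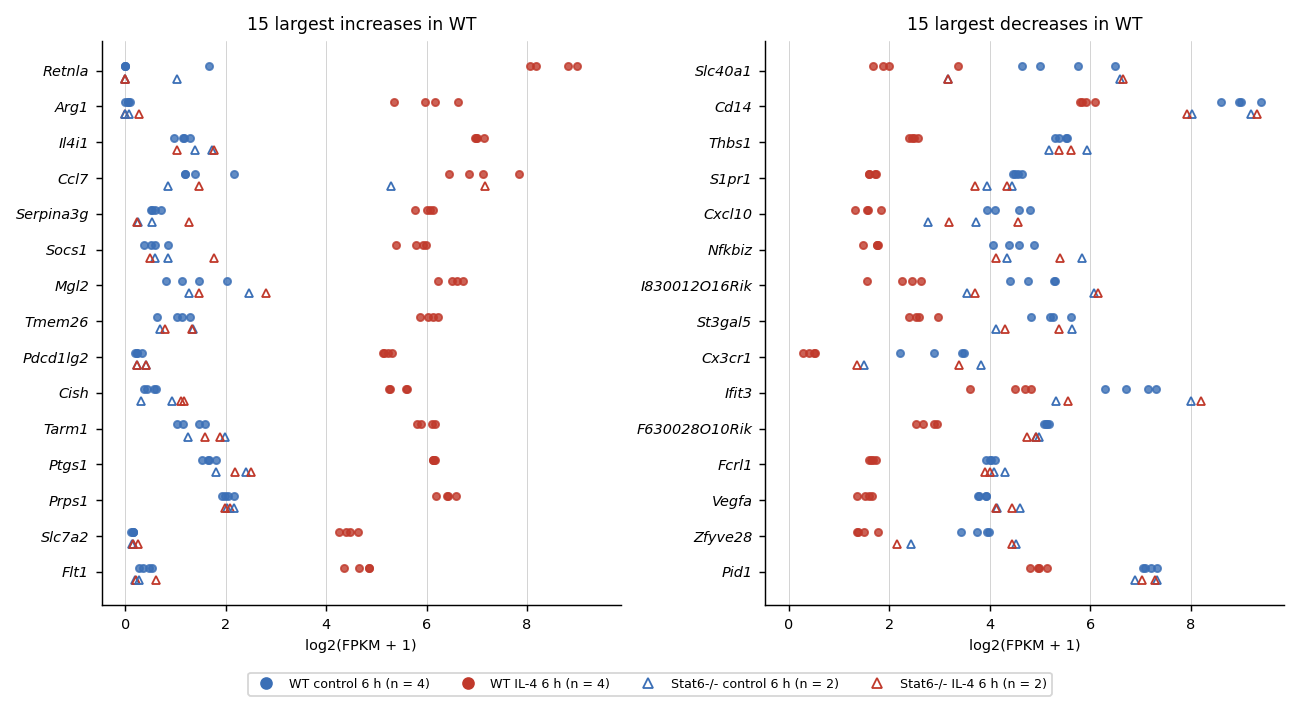
Level of each sample (log2 of FPKM + 1) for the 15 largest increases and the 15 largest decreases in WT at 6 h, with WT controls (blue circles, n = 4), WT with IL-4 (red circles, n = 4), and the Stat6-/- controls and IL-4 samples as triangles (n = 2 each). The loci were chosen among called loci whose WT groups did not overlap, so blue and red circles are separate in all 30 by this choice. The triangles of a locus lie near each other or split by sample rather than by treatment, as in Ccl7.

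Of the 15 largest decreases, 4 were in receptors, namely Cd14, S1pr1, Cx3cr1 and Fcrl1. Cd14, the co-receptor through which Toll-like receptors sense LPS, was at 511, 674, 499 and 391 FPKM in controls and 59.5, 67.6, 54.6 and 56.0 FPKM with IL-4. It was the most abundant of the 15 largest decreases by its control level, with separate groups and a change of -3.08 ± 0.33 (adjusted p = 5.93e-10 in limma). S1pr1, a receptor for sphingosine 1-phosphate, fell from 22.3 ± 1.22 to 2.17 ± 0.146 FPKM (SD, n = 4), and Cx3cr1, the fractalkine receptor of monocytes and macrophages, from 7.54 ± 3.11 to 0.348 ± 0.103 FPKM. Fcrl1, an Fc receptor-like protein, fell from 15.2 ± 0.751 to 2.16 ± 0.126 FPKM.

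Slc40a1 (ferroportin), the exporter of iron from macrophages, had the largest decrease. It was at 31.1, 24.0, 53.4 and 88.8 FPKM in controls and 3.00, 2.21, 2.65 and 9.33 FPKM with IL-4. The groups were separate although the controls were spread widely, and the log2 change was -3.24 ± 0.84 (adjusted p = 0.00169 in limma). Under the analysis of variance with Tukey's adjustment, adjusted p = 0.0555. Thbs1 (thrombospondin-1, an extracellular protein that activates latent TGF-beta) was steadier, at 45.7, 38.6, 45.1 and 40.5 FPKM in controls and 4.96, 4.27, 4.63 and 4.45 FPKM with IL-4. Vegfa, the growth factor of blood vessels, fell from 13.5 ± 0.924 to 1.91 ± 0.259 FPKM (SD, n = 4), and St3gal5, the synthase of ganglioside GM3, from 37.2 ± 8.64 to 5.25 ± 1.13 FPKM.

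Among signalling and interferon-linked genes, Nfkbiz (I-kappa-B zeta, a nuclear cofactor of NF-kB) fell from 21.7 ± 5.36 to 2.23 ± 0.298 FPKM, and Cxcl10, a chemokine induced by interferons, from 20.2 ± 5.84 to 1.997 ± 0.436 FPKM (SD, n = 4). Ifit3 and I830012O16Rik, which RefSeq names Ifit3b, are neighbours on chromosome 19 and changed by -2.46 ± 0.66 and -2.72 ± 0.65 (adjusted p = 0.00243 and 0.000708 in limma). The 50-base stretches of Ifit3 are shared with Ifit3b at 51.2%, so the split between these loci is uncertain, and for Ifit3 the analysis of variance with Tukey's adjustment gave adjusted p = 0.08. F630028O10Rik, a non-coding transcript whose exon holds Mir223, fell from 34.1 ± 1.10 to 5.83 ± 0.871 FPKM. Pid1 fell from 144 ± 12.7 to 30.5 ± 3.06 FPKM and Zfyve28 from 12.9 ± 2.31 to 1.85 ± 0.393 FPKM.

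To place the response in pathways, 25 gene lists were counted. They are described by their counts and medians, beside 3.29% of all tested loci called higher and 2.45% called lower. Members under 1 FPKM in all controls could be tested only through their IL-4 samples, which favours increases in these counts. Among them were Arg1, Pdcd1lg2, Slc7a2, Flt1, Ear11, Ccl24, Socs1, Socs2, Cish, Cdh1 and Ocstamp.

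**Figure D3:**
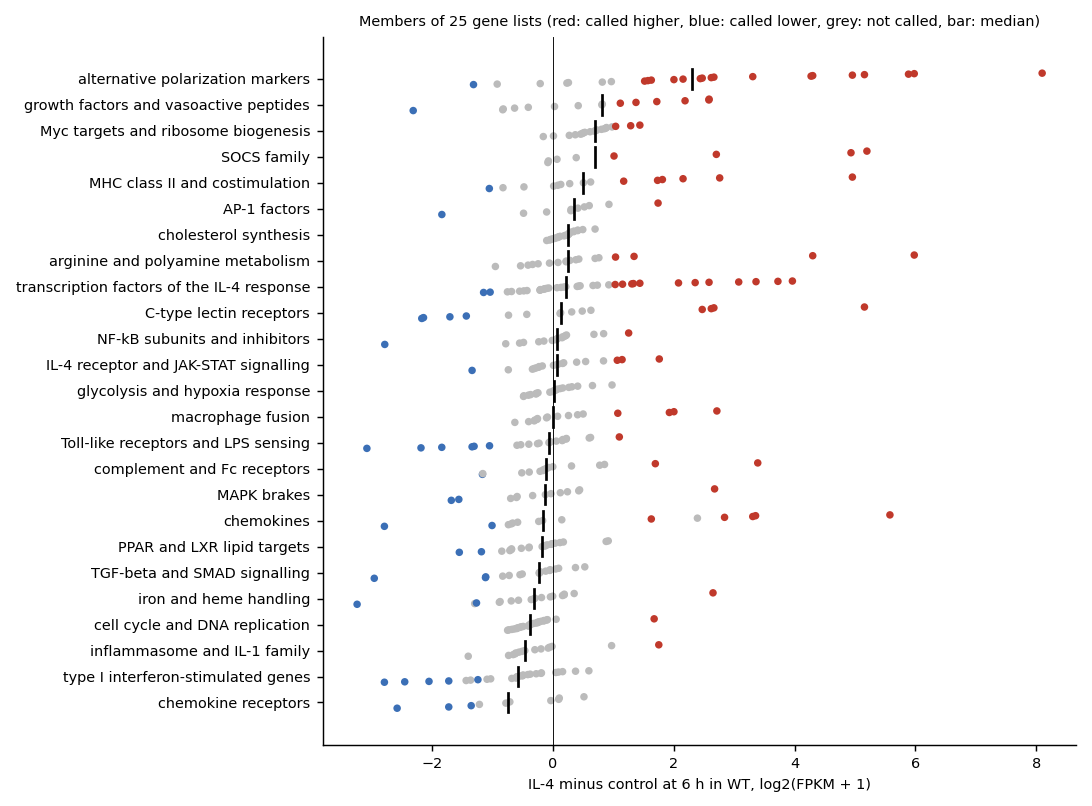
Log2 change with IL-4 at 6 h in WT for every tested member of 25 gene lists, with the median as a bar. Red points were called higher, blue points lower and grey points neither. The alternative polarization markers have a median of 2.295, and the chemokine receptors, with a median of -0.748, have no member called higher.

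Of 24 tested markers of alternative polarization, 17 were higher and 1 was lower. Several of these are in such lists because they are known to respond to IL-4. The mannose receptor Mrc1 was the most abundant, at 663, 688, 669 and 666 FPKM with IL-4 and 101, 95.6, 109.5 and 131 FPKM in controls. Its groups were separate, with a change of 2.62 ± 0.25 (adjusted p = 3.05e-11 in limma). Chi3l3 (Ym1, a chitinase-like protein) changed by 1.57 ± 0.23 at this time (adjusted p = 5.43e-07), from 19.5 ± 2.94 to 60.2 ± 11.5 FPKM. The member that fell was Stab1 (stabilin-1, a scavenger receptor), from 146 ± 26.3 to 58.3 ± 12.4 FPKM. Fn1, Igf1, Mmp12, Mmp13, Tgm2 and Vwf were not called, and without IL-4 replicate 2 or control 4 the list had 2 members lower.

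The receptor and its kinases changed in part. Of 19 tested members of IL-4 receptor and JAK-STAT signalling, 3 rose and 1 fell. Il4ra, the receptor chain that binds IL-4, went from 19.2 ± 1.10 to 43.7 ± 4.90 FPKM, Jak2 from 11.1 ± 1.30 to 39.9 ± 4.27 FPKM, and the phosphatase Ptpn2 from 12.4 ± 0.230 to 27.1 ± 2.14 FPKM. Il13ra1, the partner chain of the type 2 receptor, fell from 4.38 ± 0.439 to 1.12 ± 0.123 FPKM (SD, n = 4). Stat6 itself changed by -0.31 ± 0.08 (adjusted p = 0.00176 in limma), which is under the size limit. Of the 8 SOCS genes, 4 rose and none fell. Besides Socs1 and Cish these were Socs2, from 0.103 ± 0.0637 to 6.26 ± 1.22 FPKM, and Socs5, whose change of 1.01 dropped to between 0.95 and 0.999 without IL-4 replicate 1, 2 or 3 or control 4.

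In the list of transcription factors of the IL-4 response, more members rose than fell. Several are listed because they are known to respond to IL-4, so the count does not describe transcription factors in general. Of 37 tested factors of the IL-4 response, 12 rose and 2 fell (Bhlhe41 and Nr4a1, and Nr4a1 fell short of the size limit without IL-4 replicate 1 or 4 or without control 2, at -0.991, -1.0 and -0.909). Egr2, an early growth response factor, was at 78.4, 98.6, 77.2 and 78.8 FPKM with IL-4 and 3.40, 4.01, 3.73 and 7.004 FPKM in controls, a change of 3.96 ± 0.50 (adjusted p = 2.58e-08 in limma). Irf4, which is needed for much of the alternative programme, was at 24.4, 23.8, 26.8 and 26.9 FPKM with IL-4 and 1.03, 0.907, 1.05 and 1.03 FPKM in controls, a change of 3.72 ± 0.13 (adjusted p = 4.33e-24). In both factors the groups were wide apart. Batf3, an AP-1-like factor that partners with IRF4, rose from 6.10 ± 1.29 to 71.4 ± 7.62 FPKM and Nfil3 from 8.86 ± 0.694 to 82.0 ± 3.77 FPKM. Klf4 rose by 2.08 ± 0.14 and Bhlhe40 by 2.58 ± 0.31, whereas Bhlhe41, its close relative, fell from 5.74 ± 0.693 to 2.03 ± 0.144 FPKM. Pparg, a lipid-sensing receptor, changed by 0.45 ± 0.12 (adjusted p = 0.00278), under the size limit. Of 10 AP-1 factors 1 rose and 1 fell, and 2 rose without IL-4 replicate 1. Fosl2 went from 8.998 ± 1.51 to 33.1 ± 9.74 FPKM and Fos from 128 ± 23.5 to 34.97 ± 6.77 FPKM. In the separate list of 13 MAPK brakes, Dusp4 rose from 6.04 ± 0.760 to 44.7 ± 10.6 FPKM, while Dusp1 fell from 42.2 ± 12.9 to 12.4 ± 3.79 FPKM and Spry2 from 4.41 ± 1.65 to 0.787 ± 0.252 FPKM.

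Of 23 tested Toll-like receptors and LPS-sensing genes, 6 fell, 1 rose and 16 were not called, with a median change of -0.068. Tlr2, the receptor for bacterial lipoproteins, was at 52.8, 40.1, 61.1 and 60.3 FPKM in controls and 9.58, 8.24, 11.5 and 14.98 FPKM with IL-4, a change of -2.19 ± 0.16 (adjusted p = 2.24e-14 in limma). The groups did not overlap. Tlr13, the sensor of bacterial ribosomal RNA, fell from 138 ± 22.4 to 38.2 ± 8.87 FPKM and Cd180, a Toll-like receptor homologue, from 182 ± 41.7 to 71.0 ± 15.9 FPKM. Ly86 (MD-1), the partner of CD180, rose from 268 ± 19.2 to 577 ± 75.3 FPKM. Tlr4 was at 23.8 ± 4.08 FPKM without and 24.6 ± 2.59 FPKM with IL-4, a change of 0.05 ± 0.17 (adjusted p = 0.824). Of the other members, Irak3 and Tifa also fell.

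In the list of 15 inflammasome and IL-1 family genes, 1 rose (Il1rap, from 2.66 ± 0.190 to 11.7 ± 3.58 FPKM) and none was called lower, while 7 had an adjusted p under 0.05 for a smaller decrease, 46.7% against 19.5% of all tested loci. Il1b, the gene of interleukin-1 beta, was at 38.7, 40.2, 27.5 and 19.1 FPKM in controls and 12.1, 12.7, 9.54 and 9.04 FPKM with IL-4. Although these groups did not overlap, its change of -1.40 ± 0.61 had adjusted p = 0.0608 in limma. With the replicate number as a block, adjusted p = 1.69e-07, and without control 4, as with the block, the list had 1 member called lower. Nlrp3, the sensor of the inflammasome of that name, changed by -0.62 ± 0.14 (adjusted p = 0.000523).

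Type I interferon-stimulated genes leaned to decreases by their called members and median. Of 28 tested members none was called higher and 5 were called lower, with a median change of -0.58. The 5 were Cxcl10, Ifit3, Rsad2, Ifit1 and Cmpk2. By an adjusted p under 0.05 at any size of change, 17.9% of the list was lower, against 19.5% of all tested loci. Rsad2 (viperin) was at 38.1, 39.6, 30.2 and 23.9 FPKM in controls and 9.46, 9.498, 6.54 and 3.99 FPKM with IL-4, a change of -2.05 ± 0.64 (adjusted p = 0.00848 in limma). Its groups were separate, and replicate 4 was lowest in both. With the replicate block 9 members were called lower, and without IL-4 replicate 4 there were 3. The analysis of variance with Tukey's adjustment called 1. The levels of these genes differed widely between the 2 Stat6-/- animals, as in Ifit3 at 38.7 and 256 FPKM in the controls.

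Chemokines were split. Of 15 tested, 5 rose and 2 fell. Ccl2, which attracts monocytes, was at 91.4, 154, 75.9 and 70.9 FPKM with IL-4 and 7.70, 14.5, 5.88 and 6.82 FPKM in controls. The groups were separate, with a change of 3.35 ± 1.03 (adjusted p = 0.00782 in limma, 0.178 with Tukey's adjustment). Ccl24 (eotaxin-2) rose from 0.421 ± 0.111 to 13.4 ± 3.98 FPKM and Ccl22, a ligand of CCR4, from 1.14 ± 0.393 to 5.601 ± 1.25 FPKM. Ccl12 changed by 2.84 (adjusted p = 0.0385) and missed the threshold in 7 of the 8 fits that left out 1 sample, with adjusted p between 0.051 and 0.0795 (0.526 with Tukey's adjustment). Ccl8 changed by 2.39 (adjusted p = 0.066, and 2.09e-10 with the replicate block). Besides Cxcl10, Cxcl16 fell, by 1.01, and its change was between -0.982 and -0.926 without IL-4 replicate 4 or control 1 or 2, short of the size limit. No chemokine receptor rose and 3 of 10 fell. These were Cx3cr1, Ccr2 (the receptor of CCL2), from 62.6 ± 21.1 to 18.5 ± 7.50 FPKM, and Cxcr4, from 63.2 ± 8.34 to 24.4 ± 5.41 FPKM. The change of Ccr2 had adjusted p = 0.00889 in limma and 0.239 with Tukey's adjustment.

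C-type lectin receptors moved in opposite directions, with 4 of 15 higher and 4 lower. Those that rose were Mgl2, Clec10a, Mrc1 and Clec7a (dectin-1, the beta-glucan receptor, from 62.8 ± 7.81 to 351 ± 23.7 FPKM). Clec4d, Clec4e (Mincle) and Clec4n (dectin-2), which signal through the Fc receptor gamma chain, fell. Clec4d was at 447, 472, 583 and 589 FPKM in controls and 115, 113, 103 and 127 FPKM with IL-4, a change of -2.17 ± 0.28 (adjusted p = 4.41e-08 in limma). Its groups were far from overlapping. Clec4e fell by 2.15 ± 0.10, Clec4n by 1.71 ± 0.42, and the inhibitory receptor Clec12a by 1.44 ± 0.28.

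Ligands for other cells changed too. Of 22 listed growth factors and vasoactive peptides 15 were tested, of which 6 rose and 1, Vegfa, fell. Edn1 (endothelin-1) went from 0.0421 ± 0.0404 to 5.65 ± 2.72 FPKM, Hbegf from 0.0281 ± 0.0330 to 5.48 ± 2.63 FPKM, Pgf (placental growth factor, a ligand of FLT1) from 0.187 ± 0.0956 to 4.41 ± 0.487 FPKM and Pdgfa from 4.41 ± 0.415 to 16.8 ± 1.65 FPKM. Vegfc and Csf1 also rose, from control levels of 0.223 ± 0.0851 and 0.641 ± 0.0138 FPKM. Edn1, Hbegf, Pgf, Vegfc and Csf1 were under 1 FPKM in all controls and entered the test through their IL-4 samples alone. This favours increases in the count. Among 17 genes of TGF-beta signalling 3 fell and none rose, namely Thbs1, Tgfbr1 (from 22.6 ± 2.53 to 9.89 ± 1.62 FPKM) and Tgfbi (from 111 ± 8.84 to 50.9 ± 8.01 FPKM, adjusted p = 0.00209 in limma and 0.0659 with Tukey's adjustment).

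Of 15 tested MHC class II and costimulation genes, 6 rose and 1 fell. Cd40, which receives help from T cells, was at 78.7, 76.8, 84.4 and 74.6 FPKM with IL-4 and 10.3, 12.5, 10.8 and 9.52 FPKM in controls, a change of 2.76 ± 0.30 (adjusted p = 6.37e-10 in limma). The groups were separate. Cd274 (PD-L1) rose from 22.8 ± 3.24 to 104 ± 6.03 FPKM, Cd83 from 37.6 ± 3.16 to 135 ± 13.6 FPKM, Cd86 from 11.3 ± 1.48 to 39.8 ± 1.89 FPKM and H2-DMa from 37.1 ± 4.04 to 85.4 ± 15.3 FPKM, and Pdcd1lg2 was the sixth. Icosl fell from 8.68 ± 0.162 to 3.67 ± 0.427 FPKM (adjusted p = 0.051 with Tukey's adjustment). The class II molecule H2-Ab1 was at 207 ± 29.7 and 227 ± 42.3 FPKM without and with IL-4 (adjusted p = 0.671). In the list of 16 complement and Fc receptors, 2 rose and 1 fell. Fcgr2b, the inhibitory Fc receptor, was at 546, 526, 626 and 590.2 FPKM with IL-4 and 46.3, 41.3, 61.1 and 70.2 FPKM in controls, a change of 3.39 ± 0.23 (adjusted p = 2.31e-15). C5ar1 fell from 266 ± 28.3 to 119 ± 26.2 FPKM. Fcgr1, an activating Fc receptor, changed by -1.16 ± 0.58 (adjusted p = 0.104, and 1.76e-12 with the replicate block), and with the block the list had 2 members called lower. Itgax, the other member that rose, had adjusted p = 0.00873, and 0.228 with Tukey's adjustment.

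Of 18 tested genes of iron and heme handling, 1 rose, 2 fell and 15 were not called. Tfrc, the transferrin receptor that takes up iron, was at 53.8, 47.9, 47.7 and 75.1 FPKM with IL-4 and 7.04, 6.33, 7.78 and 11.4 FPKM in controls. Its change was 2.65 ± 0.46 (adjusted p = 8.47e-06 in limma). Slc40a1 fell as given above, with adjusted p = 0.0555 under Tukey's adjustment. Lrp1, a scavenger receptor that takes up heme bound to hemopexin, fell from 139.6 ± 18.6 to 57.0 ± 2.04 FPKM. Hmox1, the heme oxygenase, changed by -1.30 ± 0.57 (adjusted p = 0.0643, and 9.56e-11 with the replicate block).

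Metabolic and growth lists were counted in the same way. Of 18 arginine and polyamine genes 4 rose, namely Arg1, Slc7a2, Srm (spermidine synthase, from 7.34 ± 0.831 to 20.1 ± 2.23 FPKM) and Slc7a5, whose change of 1.03 was 0.936 without control 1. None fell, but 1 was called lower without control 2 or 4. Of 20 Myc targets and ribosome biogenesis genes 3 passed the size limit (Myc, Gnl3 and Dkc1), but 17 had an adjusted p under 0.05 for a rise, 85.0% against 22.6% of all tested loci, and the median change was 0.697. Dkc1 changed by 1.04, and by 0.975 without IL-4 replicate 2 and 0.984 without control 1. Of 28 cell cycle and DNA replication genes only Cdkn1a, the p21 inhibitor of cyclin-dependent kinases, was called (from 107 ± 5.28 to 345 ± 24.2 FPKM). In this list 11 had an adjusted p under 0.05 for a smaller decrease, 39.3% against 19.5% of all tested loci. Neither glycolysis (20 tested) nor cholesterol synthesis (23 tested) had a called member, with medians of 0.019 and 0.25, although 1 glycolysis gene was called higher without IL-4 replicate 1 or control 4. Of 21 PPAR and LXR lipid targets 2 fell: Abca1, the exporter of cholesterol, from 25.8 ± 4.06 to 8.20 ± 1.87 FPKM and Angptl4 from 13.2 ± 1.82 to 5.33 ± 1.37 FPKM, the latter with adjusted p = 0.0838 under Tukey's adjustment. In the NF-kB list of 18, Rel rose from 5.23 ± 1.45 to 14.0 ± 4.26 FPKM beside the decrease of Nfkbiz. Of 16 genes of macrophage fusion 4 rose. Itgb3 and Cdh1 (E-cadherin) changed by 2.71 ± 0.22 and 2.001 ± 0.13, whereas without IL-4 replicate 4 Ocstamp changed by 0.972 and Atp6v0d2 by 1.76 (adjusted p = 0.0513, and 0.377 with Tukey's adjustment), which left 2 members called.

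The same treatment was then compared in Stat6-/- BMDMs, to ask which of these changes need STAT6. No locus was called there (0% of 10760, limma), while 82 had an unadjusted p under 0.05, and 2 of these changed at least 2-fold. These 82 are fewer than the share of 0.05 that would be expected without any response, so the test was conservative here. It had 2 samples per group and did not use their pairing, and 0 calls do not show that no locus responded. With the replicate block 1 was called, Gbp5, a guanylate-binding protein, with a change of 1.15. The loci called higher in WT had a median change of 0.05 in Stat6-/- cells, with a range of -0.52 to 1.25, and those called lower had a median of -0.02, with a range of -0.46 to 0.63. Ccl7 was the single increased locus with a change of at least 1 in Stat6-/- cells, at 0.806 and 38.3 FPKM in controls and 1.78 and 143 FPKM with IL-4, where sample 2 was high in both.

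The difference between the genotypes' responses was called with WT higher at 2.70% and with WT lower at 1.89% of all tested loci. It was called in the direction of the WT change in 280 of the 354 increased loci (79.1%) and in 187 of the 264 decreased loci (70.8%), and with the replicate block in 307 and 234. Both comparisons use the same WT samples. Of the 30 largest changes, 24 had a called difference, among them Retnla (8.62 ± 0.50), Arg1 (5.88 ± 0.28), Il4i1 (6.05 ± 0.39) and Cd14 (-3.09 ± 0.57). Retnla was listed at 0 in both Stat6-/- samples with IL-4, and Arg1 at 0 and 0.203 FPKM. Cd14 was at 261 and 589.9 FPKM without and 243 and 643 FPKM with IL-4 in Stat6-/- cells. No Stat6-/- sample rose to the level of the WT samples with IL-4 in Retnla, Arg1 and Il4i1, or fell to it in Cd14.

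The 6 others were Ccl7, Slc40a1, I830012O16Rik, Cx3cr1, Ifit3 and Zfyve28. Their differences had adjusted p between 0.0768 (Zfyve28) and 0.189 (Ccl7) in limma and all passed with the replicate block, with adjusted p of 2.07e-06 for Ccl7, 1.19e-09 for Slc40a1, 2.67e-12 for I830012O16Rik, 3.29e-05 for Cx3cr1, 5.27e-11 for Ifit3 and 9.44e-10 for Zfyve28. In all 6 the 2 Stat6-/- samples lay far apart, with and without IL-4. Slc40a1 was at 95.0 and 8.03 FPKM without and 100.2 and 7.97 FPKM with IL-4.

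**Figure D4:**
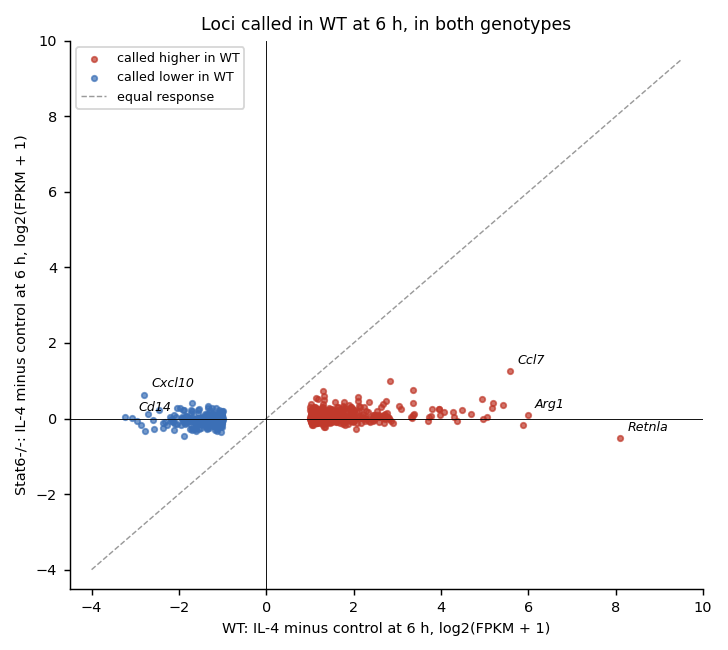
Log2 change with IL-4 at 6 h in Stat6-/- BMDMs (vertical) against WT BMDMs (horizontal) for the 618 loci called in WT, with the line of equal response dashed. The points lie along the horizontal line, between -0.52 and 1.25 in Stat6-/- cells, while in WT they span -3.24 to 8.10.

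The 6 h response was next set against 3 h and 24 h, each with its own time-matched controls. At 3 h 288 loci were higher and 142 lower, and at 24 h 401 and 509. Of the 354 loci higher at 6 h, 237 were also called higher at 3 h (66.9% of the 6 h and 82.3% of the 3 h list) and 141 at 24 h (39.8% and 35.2%). For the 264 lower loci, 104 were shared with 3 h (39.4% and 73.2%) and 112 with 24 h (42.4% and 22%). Loci that rose at 6 h had a median change of 0.42 at 1 h, 1.31 at 3 h and 0.72 at 24 h, and loci that fell had medians of -0.20, -0.91 and -0.87. The loci were chosen by their 6 h values, so these medians are a description.

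The difference between the 6 h and 3 h responses was called in few loci, 0.242% with 6 h higher and 0.223% with 6 h lower. Among the loci that rose at 6 h, 24 had risen more than at 3 h and 1 had risen less, and among those that fell, 16 had fallen further and 0 less. The 6 h samples entered both the choice of loci and these differences, a choice that favours larger changes at 6 h. The strongest later rises were Retnla, by 3.11 ± 0.40 beyond 3 h (adjusted p = 2.06e-06, and 0.335 with a pseudocount of 0.1), Arg1 by 1.91 ± 0.23 and Scn3a, a sodium channel, by 1.80 ± 0.10. Scn3a was at 6.08, 4.83, 6.77 and 6.84 FPKM with IL-4 and at most 0.0132 FPKM in controls. Mgl2, Flt1, Il4i1, Ear11 and Mcf2l followed, with differences of 1.78 to 1.49, and Mcf2l had adjusted p = 0.252 with a pseudocount of 0.1. The call for Mgl2 was lost without IL-4 replicate 2, 3 or 4 or without control 1 or 2, where its difference was between 1.60 and 1.78, and with a pseudocount of 0.1 or no filter on low values (adjusted p = 0.172 and 0.0504). In the other direction, Cd14 fell further by 1.77 ± 0.47 (adjusted p = 0.0221 in limma, and 0.0588 without control 2, at -1.63). Cdk14, a cyclin-dependent kinase, had not changed by a detectable amount at 3 h (-0.01) and was at 30.3, 32.5, 26.2 and 22.6 FPKM in controls and 8.28, 10.3, 6.82 and 6.41 FPKM with IL-4 at 6 h. These groups did not overlap. The exception that had risen less than at 3 h was Tes (testin), at 1.04 against 2.40, and its rise at 6 h was 0.958 without IL-4 replicate 2 and 0.985 without control 4.

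The 6 h response was then compared with that at 24 h. The difference between the 24 h and 6 h responses was called at 2.65% (24 h higher) and 3.32% (24 h lower) of all tested loci. Of the 354 increased loci, 141 were called smaller and 16 larger at 24 h, and of the 264 decreased loci, 60 had fallen less and 5 further. The 6 h samples chose these loci and also entered these differences, a choice that favours smaller changes at 24 h, so the counts are a description. The 5 were Icosl, Cxcl16, Emr4, Thbs1 and Gpr162, the last named after its values were seen. The steepest losses after 6 h were in Serpina3g (-4.56 ± 0.33), Rasgrp1, an activator of Ras (-3.49 ± 0.30), Pecam1, the adhesion molecule CD31 (-3.25 ± 0.25), and Cd40 (-3.17 ± 0.44). Pecam1 was at 17.7, 14.3, 18.1 and 19.0 FPKM with 6 h of IL-4 and 1.56, 1.19, 1.71 and 1.57 FPKM in controls, and its change at 24 h was -0.38. Cd86, Fgl2, Amica1 and Cd83 came next, with differences of -3.02 to -2.78. For Fgl2, adjusted p = 0.0371 in limma, and it was between 0.0517 and 0.0606 without 6 of the 8 samples in turn (IL-4 replicate 1, 2 or 3, or control 2, 3 or 4). Its rise at 6 h, 2.09, was 1.97 without control 4 (adjusted p = 0.0514), and with Tukey's adjustment it had adjusted p = 0.402.

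Another group was still building up at 6 h. Ocstamp, needed for the fusion of macrophages and osteoclasts, was at 1.09, 1.46, 1.07 and 1.90 FPKM with IL-4 and at most 0.205 FPKM in controls at 6 h, a rise of 1.07 ± 0.14 that was 4.83 ± 0.21 larger at 24 h. Retnla rose by a further 3.89 ± 0.42 and Ear11, an eosinophil-associated ribonuclease, by 3.24 ± 0.23, from 3.38, 2.99, 5.55 and 7.19 FPKM with IL-4 at 6 h. Ear2, of the same family, gained 2.88 ± 0.24, although 41.5% of its 50-base stretches occur in related genes. Itgax (the integrin CD11c) gained 2.94 ± 0.78 and Ccl22 2.70 ± 0.30. Changes of sign were rare: Ly86, Dab2, Cd86 and Kmo were higher at 6 h and lower at 24 h, and Efr3b was lower at 6 h and higher at 24 h. Dab2 and Kmo were named after their values were seen. St3gal5, one of the largest decreases at 6 h, changed by 0.18 ± 0.35 at 24 h, a gain of 2.78 ± 0.48.

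**Figure D5:**
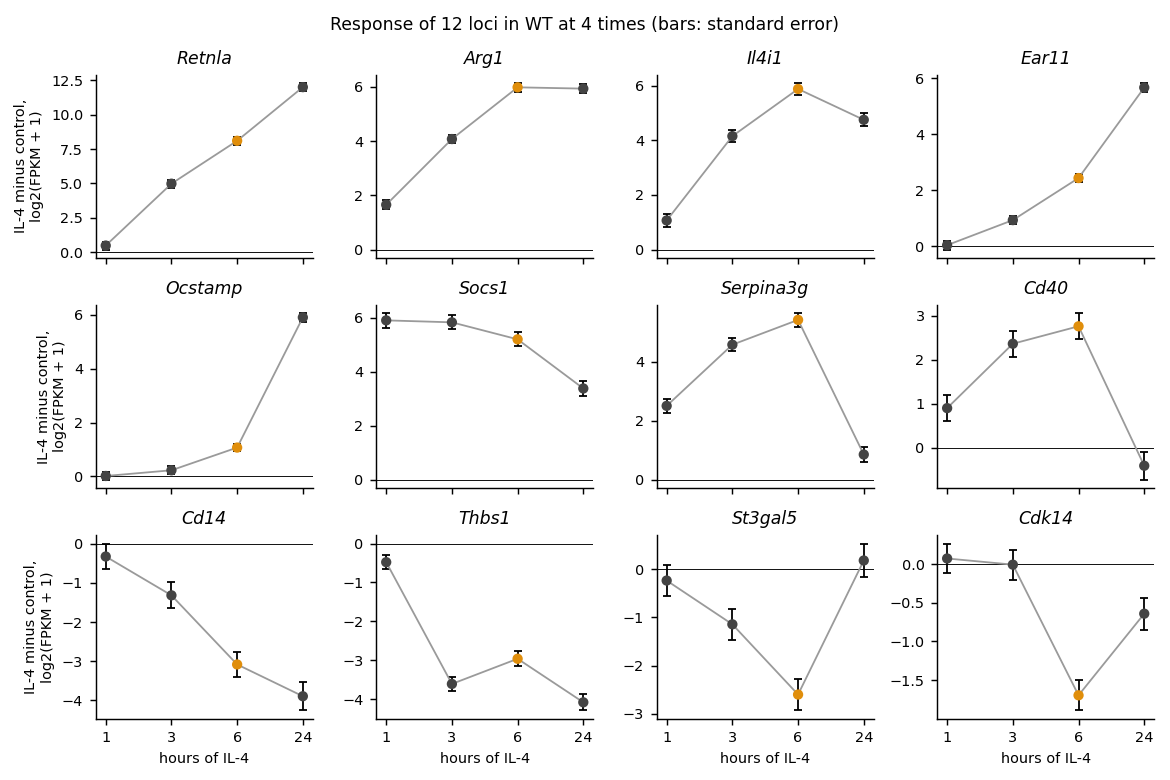
Log2 change with IL-4 in WT (FPKM + 1) at 1, 3, 6 (orange) and 24 h for 12 loci, with the standard error as bars and the times evenly spaced. Retnla, Ear11 and Ocstamp are highest at 24 h, Serpina3g and Cd40 are highest at 6 h and low at 24 h, and St3gal5 and Cdk14 are lowest at 6 h.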

How the data were processed

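Poly-A RNA of 53 BMDM samples was sequenced, and the authors deposited a table of FPKM per gene locus for each sample. The submitters' processing notes list TopHat2 2.0.7, Cufflinks 2.0.2 and mm10; the annotation is not given in the sources used here, and FPKM keeps no read counts. The groups were taken from the sample labels. Values under 1e-10 FPKM (1683 in all samples) were set to 0, and 5 loci at 0 in 1 sample and at least 1000 FPKM in another were treated as failed estimates in the pairing check. Every locus that reached 1 FPKM in any of the 8 samples was fitted as log2(FPKM + 1), which understates changes of low genes, in limma 3.58.1 (limma-trend, R 4.3.3), with 18 group means over all 53 samples and 35 residual degrees of freedom. P-values were adjusted by Benjamini-Hochberg over 10760 loci, and loci were called at adjusted p under 0.05 and a 2-fold change. The fit was also run on simulated data with independent noise in each sample. These held no pairing of samples, so the run does not check the fit for paired samples. Differences between genotypes or times were contrasts of the same fit. Exon overlaps and shared 50-base stretches were read from GENCODE M21, and promoters from RefSeq.

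Named genes were Stat6, Retnla, Arg1, Il4i1 and Cd14, the 15 largest called changes in each direction without overlap between groups, up to 4 called members of each gene list in each direction and others needed to describe it, the 8 largest called differences in each direction between times, loci called in Stat6-/- cells in any fit, and cell type markers. A result that these rules name is not reported here. The members, lists and rules were chosen with earlier results of these data known. The WT samples of a group came from separate animals. Departures from the group means were compared between IL-4 and control samples of WT at 6 h. Pearson's r over loci was 0.155 to 0.672 in the 4 same-number pairs and -0.605 to 0.301 in the others. Pair 3, at 0.155, lay under IL-4 replicate 2 with control 1 (0.301) and IL-4 replicate 4 with control 3 (0.247). Departures cancel within a group, which lowers r in the unlike pairs. The numbers were taken to pair the samples, an assumption not checked at other times or in Stat6-/- cells. The main fit did not use this pairing, and the replicate block did. Alternatives changed the samples in the fit, pseudocount, filter, scaling, block, test and fold limit, and left out each of the 8 samples.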

Additional observations from a re-analysis of the deposited data

Results flagged for a closer look

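In 4 of 110 sets of 4 samples 1 value stood apart by Dixon's 95% limit, where chance gives about 5.5. Retnla was at 2.16 FPKM in control 1 and listed at 0 in the other 3 controls. Ccl7 was at 3.49 FPKM in control 2 and 1.27 to 1.63 FPKM in the others. With IL-4, Slc40a1 was at 9.33 FPKM in replicate 4 and 2.21 to 3.00 FPKM in the others, and Nfkbiz was at 1.79 FPKM in replicate 2 and 2.36 to 2.41 FPKM in the others.

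The responses of WT and Stat6-/- BMDMs differed (limma, interaction) in 24 of 31 genes examined. The genes examined were Stat6 and the largest WT changes at 6 h, and the same WT samples enter this difference. Over all tested loci it was called at 2.70% (WT higher) and 1.89% (WT lower). The log2 difference, WT minus Stat6-/-, was 8.62 for Retnla, 6.05 for Il4i1, 5.06 for Serpina3g, 5.88 for Arg1, 5.02 for Tmem26, 4.96 for Pdcd1lg2, 4.89 for Mgl2 and 4.79 for Socs1. It was 4.56 for Tarm1, 4.42 for both Cish and Prps1, 4.25 for Slc7a2, 4.24 for Ptgs1 and 4.10 for Flt1. Among the repressed genes it was -3.43 for Cxcl10, -3.09 for Cd14, -2.90 for Thbs1, -2.71 for S1pr1, -2.56 for St3gal5, -2.46 for Nfkbiz and -2.25 for F630028O10Rik. It was -2.24 for both Vegfa and Pid1 and -2.12 for Fcrl1.

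The WT responses at 6 h and 3 h also differed in named genes. Genes were named in part for the largest called differences between times, so that they differ follows from this choice. Over all tested loci the difference was called at 0.242% (6 h higher) and 0.223% (6 h lower). The log2 difference, 6 h minus 3 h, was 3.11 for Retnla, 1.91 for Arg1, 1.80 for Scn3a, 1.78 for Mgl2, 1.74 for Flt1, 1.73 for Il4i1, 1.5 for Ear11 and 1.49 for Mcf2l. It was -1.77 for Cd14, -1.69 for Cdk14, -1.36 for Tes, -1.30 for Pid1, -1.25 for Emr4, -1.19 for Fcrl1 and -1.15 for Plscr4. The call for Emr4 was lost without IL-4 replicate 2 or control 3 or 4, with adjusted p of 0.0567, 0.0526 and 0.0502 in limma.

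Likewise, the log2 difference of 24 h minus 6 h was 4.83 for Ocstamp, 3.89 for Retnla, 3.24 for Ear11, 3.20 for Efr3b, 2.94 for Itgax, 2.88 for Ear2, 2.78 for St3gal5 and 2.70 for Ccl22. It was -4.56 for Serpina3g, -3.49 for Rasgrp1, -3.25 for Pecam1, -3.17 for Cd40, -3.02 for Cd86, -2.99 for Fgl2, -2.87 for Amica1 and -2.78 for Cd83. These genes too were listed for the size of this difference. Over all tested loci it was called at 2.65% (24 h higher) and 3.32% (24 h lower).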

How the results depend on the processing

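A fold limit of 1.5 gave 772 loci higher and 730 lower at 6 h in WT, and no fold limit gave 2428 and 2093. A pseudocount of 0.1 gave 420 loci lower at 6 h, 309 with a genotype difference of WT lower and 43 with a response lower at 6 h than at 3 h, beside 264, 203 and 24. Leaving out 1 sample at a time gave 346 to 365 loci higher and 246 to 273 lower. The replicate block takes samples of equal number as paired. With it, 358 loci were higher and 281 lower in WT, and 1 locus was called in Stat6-/- cells. The genotype difference was called at 323 and 283 loci, 6 h against 3 h at 38 and 34, and 24 h against 6 h at 314 and 435. The block changed the calls named beside their results. For the 114 named genes, 2123 of 2166 values under the alternatives kept the call and direction of the 6 h change in WT, 43 values in 20 genes lost the call and 0 changed direction. FPKM without counts gives no counting error, and Stat6-/- groups of 2 samples limit the genotype difference.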
